A study of Mus musculus with 3 samples.

Results

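Genes of secreted signals were followed in wild-type (WT) mouse embryonic fibroblasts (MEFs), namely the chemokine ligands and a set of cytokines that fibroblasts are known to make. The set held every gene whose symbol is Ccl or Cxcl followed by a number, with or without a letter, and Cx3cl1, Il6, Il11, Lif, Csf1, Csf2, Csf3, Il33, Il34, Il1a, Il1b, Il1rn, Tnf and Tslp. It came to 50 of the 21782 genes in the table, 37 of them chemokine ligands and 13 cytokines. The cells were MEFs from E12.5 embryos with no mutant allele named, grown asynchronously in DMEM with 20% fetal bovine serum and given no treatment. PolyA+ RNA of 3 clones was sequenced, 1 library per clone, so each value below belongs to 1 clone and the single condition left no groups to compare. The sources used here do not say whether the clones came from separate embryos.

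Chemokines are small secreted proteins, named CC, CXC or CX3C for the spacing of their first cysteines, that draw cells along a gradient through G protein-coupled receptors. Fibroblasts make some of them at all times, such as Cxcl12, and others when inflammatory signals act through NF-kB and AP-1, such as Ccl2, Cxcl1 and the cytokine Il6. Csf1 is the growth factor on which tissue macrophages depend, and it comes largely from stromal cells, whereas Ccl3, Ccl4 and Tnf are better known as products of macrophages themselves.

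Clone 2 stood apart from the others in its macrophage markers, a list chosen with earlier results of these data known. Values are CPM, the share of a library's counts scaled to a fixed total after TMM correction, and the libraries of clones 1, 2 and 3 held 25261357, 22594316 and 24791198 counts. All 15 macrophage markers in the table (Csf1r, Cd68, Lyz2, C1qa and others) were highest in clone 2, where 35.3% of all genes tested were. The summed level of the markers was 2081 CPM in clone 2 against 439 CPM in clone 1 and 369 CPM in clone 3. The ratio of clone 2 to clones 1 and 3 together ran from 3.28 for Cd14 to 7.03 for Tyrobp, with a median of 4.97. The 8 fibroblast markers were high in every clone, between 67708 and 92905 CPM in sum, as the label of the cells says, and their ratios ran from 0.671 for Fn1 to 1.91 for Pdgfra. Of 11 lymphocyte, granulocyte and mast cell markers, 5 had no count and none had more than 3 counts in any clone. Epithelium markers summed to between 3.38 and 6.93 CPM and endothelium markers to between 10.9 and 22.7 CPM. Of the endothelium markers, named here after their values were seen, Emcn had 307, 4 and 242 counts in clones 1, 2 and 3, with the lowest log2 ratio of clone 2 to the others of all genes tested (-4.08). Kdr had 163, 214 and 314 counts, and Pecam1 and Cdh5 had at most 15. In bulk RNA, more cells of a type and more RNA per cell cannot be told apart.

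To show what lies just ahead of these genes, the 150 bases before the start site of 7 of them are printed below, read from RefSeq promoter windows on GRCm38.p6 and written 5′ to 3′ on the strand of the gene. Capitals mark matches, on either strand, to an NF-kB motif, to AP-1 (TGANTCA), to a TATA box (TATAAA) or to C/EBP (TTGCNNAA), and positions count back from -1 at the last base before the start. Ccl9, Ccl12 and Ccl3 are examples of the ligands that were highest in clone 2 by a wide margin. Of the others, Ccl4, Ccl5 and Cxcl16 had no promoter window, and Ccl6 and Cxcl10 are not printed. The sequences of Ccl9, Ccl12 and Ccl3 lie at chr11:83578637-83578786 on the minus strand, chr11:82101695-82101844 on the plus strand and chr11:83649379-83649528 on the minus strand.
Ccl9: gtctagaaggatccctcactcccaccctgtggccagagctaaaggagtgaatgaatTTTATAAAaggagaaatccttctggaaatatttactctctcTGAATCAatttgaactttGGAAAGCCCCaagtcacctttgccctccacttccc
Ccl12: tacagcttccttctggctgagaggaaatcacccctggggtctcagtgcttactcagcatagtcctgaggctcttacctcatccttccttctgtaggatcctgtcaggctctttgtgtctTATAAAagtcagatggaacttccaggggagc
Ccl3: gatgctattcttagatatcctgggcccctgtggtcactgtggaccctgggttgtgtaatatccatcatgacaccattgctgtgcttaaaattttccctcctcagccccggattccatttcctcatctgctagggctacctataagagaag
Ccl9 holds an NF-kB match, an AP-1 match and overlapping TATA matches on both strands, Ccl12 a TATA match from -31 to -26, and Ccl3 none of these letters.

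Cxcl2 and Cxcl1 are neighbours on chromosome 5 that went opposite ways in clone 2, and Il6 and Cxcl12 were among the genes that were lowest there. These sequences lie at chr5:90903749-90903898 on the plus strand, chr5:90891095-90891244 on the plus strand, chr5:30012964-30013113 on the plus strand and chr6:117168385-117168534 on the plus strand.
Cxcl2: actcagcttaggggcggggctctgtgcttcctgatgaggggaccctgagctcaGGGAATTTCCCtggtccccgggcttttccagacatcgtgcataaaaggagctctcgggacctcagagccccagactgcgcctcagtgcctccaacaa
Cxcl1: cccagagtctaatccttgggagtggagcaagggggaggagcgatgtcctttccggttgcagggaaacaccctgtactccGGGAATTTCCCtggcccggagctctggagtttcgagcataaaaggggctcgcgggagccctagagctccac
Il6: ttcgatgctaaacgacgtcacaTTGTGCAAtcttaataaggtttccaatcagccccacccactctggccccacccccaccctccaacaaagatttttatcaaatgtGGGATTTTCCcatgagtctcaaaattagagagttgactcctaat
Cxcl12: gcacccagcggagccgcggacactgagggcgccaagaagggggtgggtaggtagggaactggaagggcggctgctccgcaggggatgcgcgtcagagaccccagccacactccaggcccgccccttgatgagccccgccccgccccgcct
The same run of letters matching NF-kB on both strands is in Cxcl2 from -97 and in Cxcl1 from -71, so these letters did not distinguish the pair. Il6 has an NF-kB match from -44 to -35 and a C/EBP match, and Cxcl12 has none of the motifs.

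Windows of 300 bases (250 before the start and 50 after it) were at hand for 35 of the 50 members, and the motifs were counted in them and in the windows of all 27025 genes. NF-kB was found in 11 members (31.4%) against 9.55% of all genes. AP-1 was likewise found in 11 members (31.4%), against 8.97%. The TATA box was in 14 members (40%) against 15.7%, C/EBP in 7 (20%) against 12.2%, and an interferon response motif (GAAA, any 2 bases, GAAA) in 3 (8.57%) against 3.99%. Among members with a mean of at least 1 CPM, NF-kB was found in 3 of the 8 that were highest in clone 2 (Ccl9, Csf1 and Cxcl2) and in 5 of the 10 that were not (Ccl20, Ccl27a, Cxcl1, Il6 and Lif). A match is a run of letters and not evidence of binding.

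A few genes took most of the ligand counts of these MEFs. Of the 50 members, 39 had at least 1 count, 25 had a mean of at least 1 CPM and 20 had at least 1 CPM in every clone. Their summed level was alike between the clones, at 2300, 2196 and 2249 CPM in clones 1, 2 and 3 (2248 ± 52.1, SD, n = 3). Csf1 and Cxcl12 together took 85.1% ± 2.27 of it (SD, n = 3), and with Cx3cl1, Lif, Ccl2, Cxcl14 and Ccl7 the share was 96.7% ± 1.5 (SD, n = 3). CPM are not divided by length, so genes were ordered by CPM per kb of annotated exon. Csf1 came first at 236 ± 23.6 CPM per kb and Cxcl12 next at 81.7 ± 25.2 CPM per kb, followed by Ccl2 at 38.3 and Ccl7 at 31.9 CPM per kb. Lif, in the seventh place at 14.9 CPM per kb, was above Ccl9 at 4.87 CPM per kb with no overlap between their clones. Only 4 of 24 neighbouring pairs in this order were separated in this way, namely Csf1 from Cxcl12, Cxcl12 from Ccl2, Lif from Ccl9 and Ccl27a from Ccl25. Per kb of coding sequence Cxcl12, whose exons are mostly untranslated, came first at 1872 CPM per kb and Csf1 second at 751 CPM per kb, so the order of the leading pair rests on the length used.

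**Figure D1:**
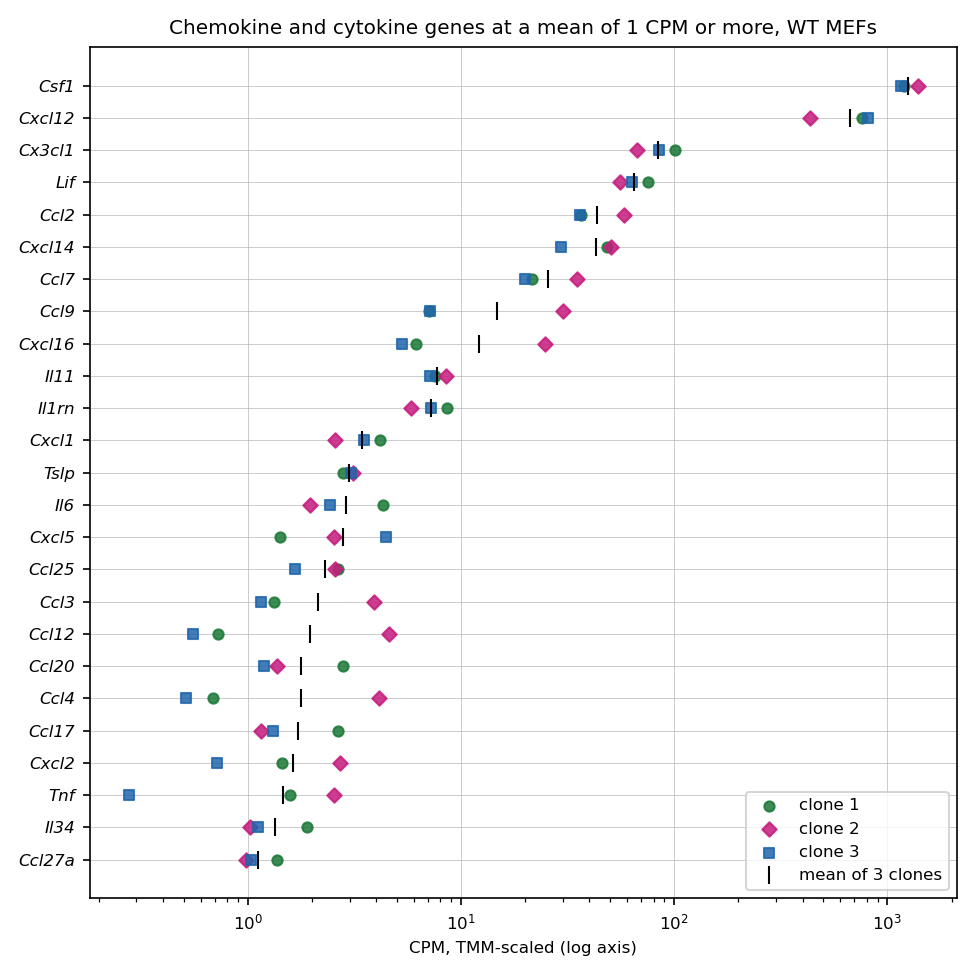
Level of the 25 members with a mean of at least 1 CPM (log axis, not divided by gene length), 1 symbol per clone and a tick at the mean of the 3 clones. Csf1 and Cxcl12 stand far to the right, and the symbol of clone 2 is set apart to the right for Ccl9, Cxcl16, Ccl3, Ccl12 and Ccl4 and to the left for Cxcl12.

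The 3 libraries were compared with a chi-square test of each gene's counts, adjusted by the Benjamini-Hochberg method over all genes with at least 30 counts in sum. The test compares libraries and not conditions, and it treats any difference beyond counting error as one, where the biological coefficient of variation between the clones was 0.193 over all genes tested. The 50 members fell into 29 that were tested, 10 with fewer counts and 11 with none. Of the 29, 25 differed (86.2%), against a background of 62.2% of 12608 genes. By the rule, members were split by the clone with the highest CPM, which is a description of the values with no test. Among members with a count, 24 were highest in clone 2 and 15 were not. Among those tested, 17 were highest in clone 2 (58.6%, background 35.3%), 10 in clone 1 and 2 in clone 3. At the edge of the split, Tslp (3.10 CPM in clone 2 and 3.05 in clone 3) and Cxcl14 (50.8 CPM in clone 2 and 48.4 in clone 1) were just inside, and Ccl25 (2.57 CPM in clone 2 and 2.66 in clone 1) was just outside. The median log2 ratio of clone 2 to the mean of clones 1 and 3, with 0.5 CPM added, was 0.24 over the members tested and 0.00 over all genes tested, and without clone 1 it was 0.51 over the members.

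Differences of at least 2-fold were fewer. Ccl3, Ccl4, Ccl5, Ccl6, Ccl9, Ccl12, Cxcl10 and Cxcl16 passed the test and were at least 2-fold higher in clone 2 than in each other clone, which is 8 of 29 members (27.6%) against a background of 2.95%. With at least 10 counts required in every clone the number was 5, since Ccl5, Ccl6 and Cxcl10 were then not tested. Ccl5, Ccl6 and Cxcl10 reached the main filter of 30 counts in sum only through their counts in clone 2. With no filter beyond 1 count, it was 10 of 39 members. The 2.95% holds for the main filter, and the share of all genes was not analysed for the other filters. The 8 named above are all chemokine ligands, and none of the 9 cytokines tested met both criteria. Il1b, a cytokine with 1, 9 and 1 counts, was too low to be tested. The ratios of Ccl4, Ccl5, Ccl6, Ccl9, Cxcl10 and Cxcl16 lay within the range of the macrophage markers, a range that held 1.76% of all genes tested. The intervals of 11 members reached that range and none lay wholly above it. Few counts make an interval wide, as for Csf3 at 2.22 (1.07 to 4.63), which reached the range in this way. The share of all genes whose intervals reached it was not analysed, and the 1.76% is for the ratios alone. The part of macrophage RNA in these values was not tested.

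**Figure D2:**
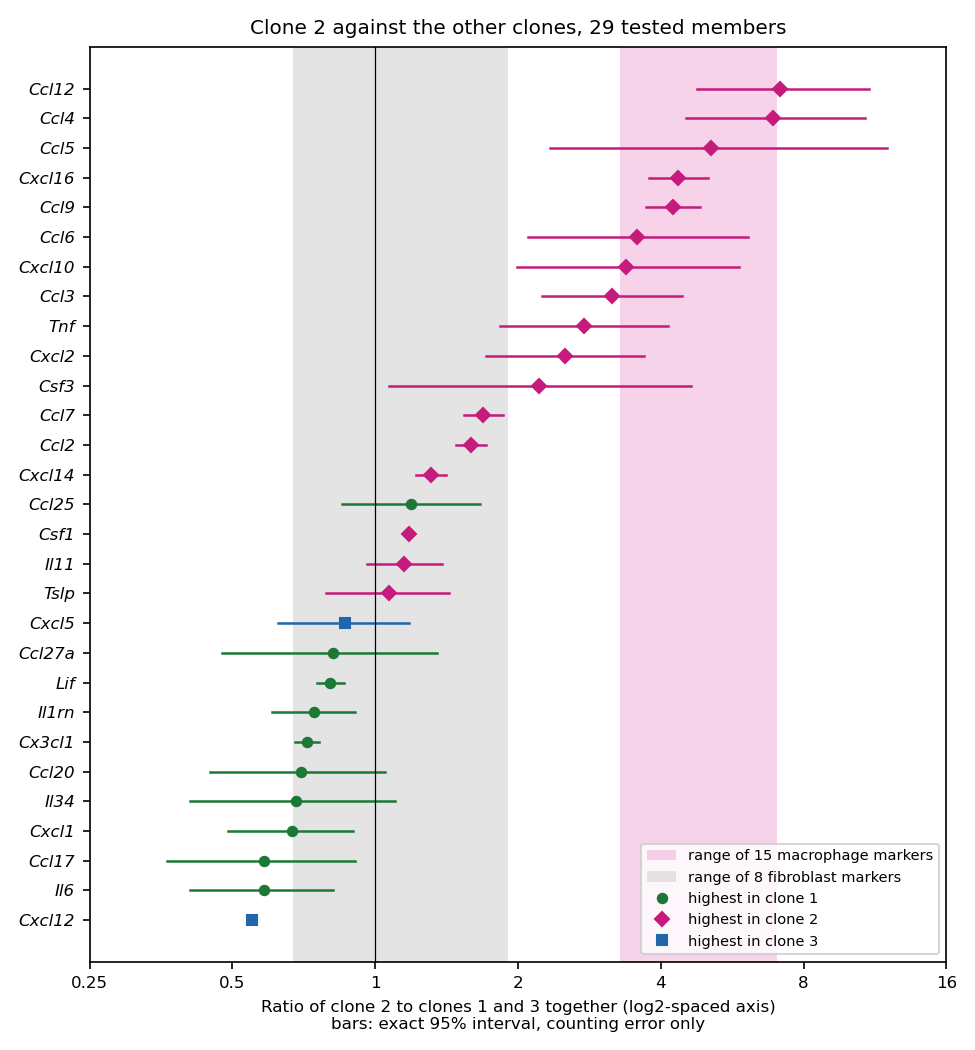
Ratio of clone 2 to clones 1 and 3 together (log2-spaced axis) for the 29 members tested, with exact 95% intervals that cover counting error only and colour and shape for the clone with the highest level. The pink band is the range of the macrophage markers (3.28 to 7.03) and the grey band that of the fibroblast markers (0.671 to 1.91). Cxcl12 is the lowest member at 0.549 and Ccl12 the highest at 7.15.

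The monocyte attractants Ccl2, Ccl7 and Ccl12, which share the receptor Ccr2, were all highest in clone 2, but by different amounts. For Ccl2 the counts of clones 1, 2 and 3 were 912, 1307 and 913, a mean of 43.6 ± 12.4 CPM (SD, n = 3). Ccl7 had 536, 792 and 505 counts, or 25.6 ± 8.32 CPM. Clones 1 and 3 were close together in both genes, and clone 2 was 1.59 times as high for Ccl2 (exact 95% interval 1.48 to 1.71, adjusted p = 6.45e-36, chi-square) and 1.69 times for Ccl7 (1.54 to 1.86, adjusted p = 1.75e-27, chi-square). Ccl2 took a nearly fixed share of the counts of the pair, 63% in clone 1, 62.3% in clone 2 and 64.4% in clone 3 (63.2% ± 1.08, SD, n = 3). Ccl12 had 18, 103 and 14 counts, and its ratio was 7.15 (4.77 to 11, adjusted p = 9.24e-28, chi-square), an interval wholly above that of Ccl2 and Ccl7. Ccl8, the last of these attractants, had 2, 2 and 0 counts.

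The inflammatory CC ligands of the MIP-1 type, with Ccl5, Ccl6 and Ccl9, were likewise highest in clone 2. All 5 that were tested passed the test and were at least 2-fold higher there. Of these, Ccl5 and Ccl6 reached the 30 counts needed for the test only through their counts in clone 2. Ccl9, a rodent ligand of Ccr1, had 176, 682 and 181 counts, which is 7.08, 30.2 and 7.17 CPM. Clones 1 and 3 could hardly be told apart, and the ratio of clone 2 to them was 4.24 (3.73 to 4.84, adjusted p = 3.26e-125, chi-square). Ccl3 and Ccl4, also called MIP-1 alpha and MIP-1 beta, lie side by side on chromosome 11. Ccl3 had 33, 88 and 29 counts with a ratio of 3.15 (2.25 to 4.44, adjusted p = 1.19e-11, chi-square). Ccl4 had 17, 93 and 13 counts with a ratio of 6.89 (4.52 to 10.8, adjusted p = 1.50e-24, chi-square). Ccl3 was therefore 66% of the counts of the pair in clone 1, 48.6% in clone 2 and 69% in clone 3, although the Wilson intervals of these shares touch (52.2 to 77.6, 41.4 to 55.9 and 54 to 80.9). Ccl6, a further rodent ligand of Ccr1, had 16, 40 and 9 counts, and Ccl5 (RANTES), an attractant of T cells and monocytes, had 8, 23 and 2 counts. Ccl1, the ligand of Ccr8, had 3 counts in clone 2 and none elsewhere.

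These genes lie in clusters, where neighbours had unlike levels. On chromosome 11 of GRCm38, Ccl2, Ccl7, Ccl11, Ccl12, Ccl8 and Ccl1 are found from 82035571 to 82305690. Ccl12 lies between Ccl11, an eosinophil attractant with 0, 6 and 1 counts, and Ccl8. Further along, Ccl5, Ccl9, Ccl6, Ccl3 and Ccl4 are found from 83525778 to 83664683, and each of these 5 was highest in clone 2. The 6 genes from Ccl2 to Ccl1 were highest in clone 2 as well, although Ccl11, Ccl8 and Ccl1 had too few counts to be tested. Ccl8 had 2 counts in clone 1 and 2 in clone 2, so that only library size set its place. Of all genes tested, 35.3% were highest in clone 2. On chromosome 5 from 90759360 to 90905938, Cxcl5, Cxcl3, Cxcl1 and Cxcl2 did not share an order of the clones.

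**Figure D3:**
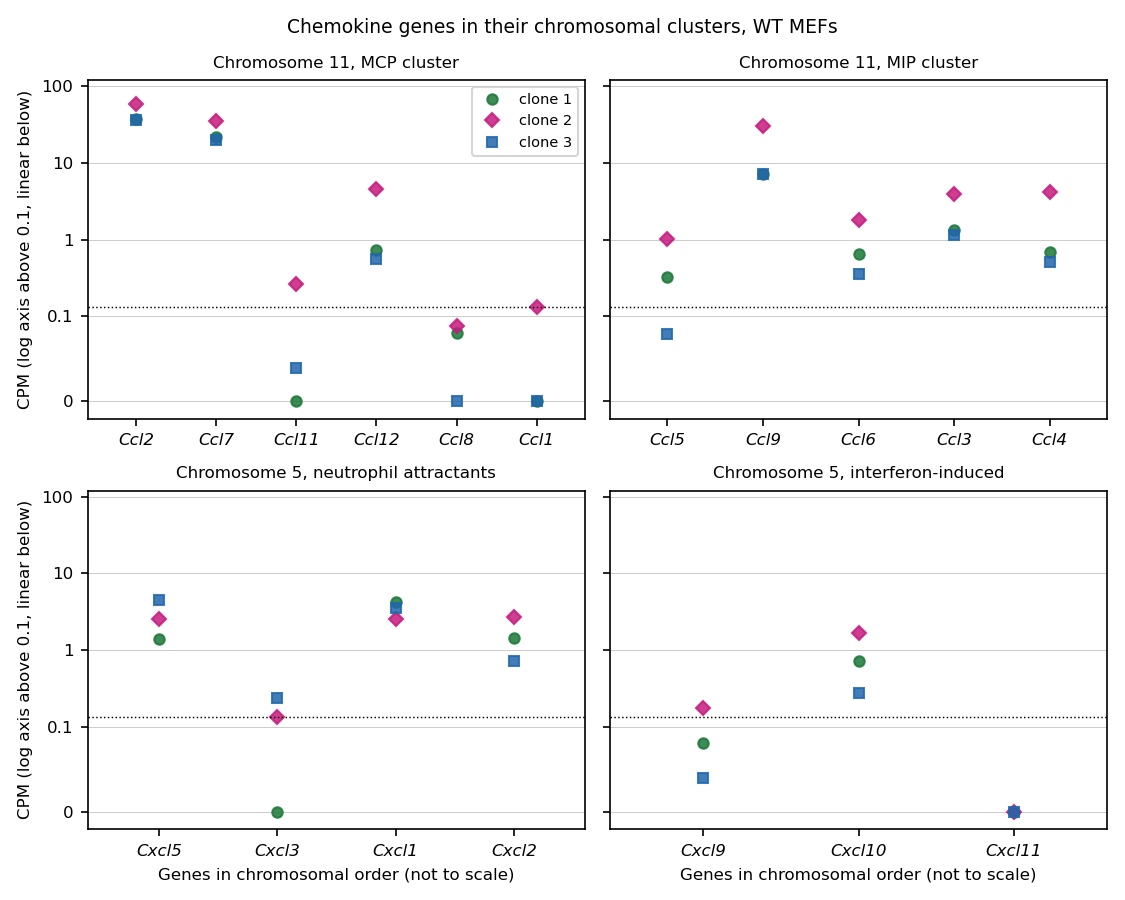
Level in each clone of genes in 4 chromosomal clusters, in chromosomal order and not to scale (CPM, log axis above 0.1 and linear below, dotted line at the level of 3 counts in clone 2, the limit for a gene with none). Clone 2 is the highest for all 5 genes of the MIP cluster, all 6 of the MCP cluster, and Cxcl9 and Cxcl10. For Ccl8 this rests on library size alone, with 2 counts in clone 1 and 2 in clone 2. Cxcl5 is highest in clone 3 and Cxcl1 in clone 1.

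The neutrophil attractants, which act through Cxcr2, were thus split among the clones. Cxcl1 had 104, 58 and 89 counts (ratio 0.668, 0.489 to 0.900, adjusted p = 0.0202, chi-square). Cxcl2 had 36, 61 and 18 counts (ratio 2.51, 1.71 to 3.69, or 1.87 against clone 1 and 3.80 against clone 3, adjusted p = 9.22e-07, chi-square). Cxcl1 made up 74.3% of the counts of the pair in clone 1 and 83.2% in clone 3, but 48.7% in clone 2 (Wilson 39.9 to 57.6), below the intervals of both other clones. Cxcl5 had 35, 57 and 112 counts and was highest in clone 3, at 1.41, 2.53 and 4.43 CPM (adjusted p = 3.81e-09, chi-square). Cxcl3, of which 11.4% is shared in sequence with Cxcl2, had 0, 3 and 6 counts. Of the interferon-induced ligands of Cxcr3, Cxcl10 had 18, 38 and 7 counts (ratio 3.38, 1.99 to 5.84, or 2.33 against clone 1 and 6.08 against clone 3, adjusted p = 2.61e-06, chi-square), Cxcl9 had 2, 4 and 1, and Cxcl11 had none.

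Among the CXC ligands made by resting tissue, Cxcl12 and Cxcl16 moved in opposite directions. Cxcl12, which holds blood progenitors in their niche through Cxcr4, had 18970, 9741 and 20448 counts, with a mean of 668 ± 206 CPM (SD, n = 3). Clone 2 was the lowest by far, at 0.549 of the level of clones 1 and 3 together (0.537 to 0.561). Cxcl16, a ligand of Cxcr6 that is first made as a membrane protein, had 152, 561 and 134 counts with a ratio of 4.36 (3.77 to 5.04, adjusted p = 1.14e-105, chi-square). Of its exon length, 18.3% overlaps Zmynd15 on the opposite strand, whose reads cannot be told apart without a stated strand setting. Cxcl14, a ligand of skin and other tissues, had 1203, 1146 and 742 counts and was low in clone 3 alone. Cx3cl1, a membrane-bound ligand whose receptor Cx3cr1 is found on macrophages, had 2516, 1506 and 2134 counts (ratio 0.720, 0.679 to 0.763, adjusted p = 1.38e-35, chi-square), lowest in clone 2.

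None of the 4 CC ligands tested in the group set out as homeostatic and tissue ligands was highest in clone 2. Ccl17, a ligand of Ccr4, had 66, 26 and 33 counts (adjusted p = 1.65e-04, chi-square), and Ccl20, the ligand of Ccr6, had 69, 31 and 30 (adjusted p = 8.34e-05, chi-square). Both were about as low in clone 3 as in clone 2, with clone 1 above them. Ccl25, the ligand of Ccr9, had 66, 58 and 42 counts (adjusted p = 0.0584, chi-square), and Ccl27a, a ligand of Ccr10, had 34, 22 and 26 (adjusted p = 0.443, chi-square). Of the Ccl27a transcript, 99.6% is shared with Ccl27b and other copies, so that its count is uncertain. Ccl19, Ccl21a, Ccl21b, Ccl21c, Ccl22, Ccl26, Ccl27b, Ccl28, Cxcl11, Cxcl13 and Cxcl17 had no count in any clone, which allows up to 0.133 CPM in clone 2. For Ccl19, Ccl21a, Ccl21b and Ccl27b, between 88.9% and 100% of the sequence is shared with annotated copies, and how reads with several positions were counted there is not given in the sources used here. The remaining low genes were Ccl24 and Csf2, with 1 count each, and Il33, Il1a and Il1b, given below.

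Csf1 had the highest CPM of all members and differed little between the clones. It had 29610, 31260 and 29162 counts, or 1192, 1386 and 1155 CPM, and clone 2 was 1.18 times as high as the others (1.17 to 1.2, adjusted p = 5.51e-126, chi-square). The depth at this gene makes so small a difference pass the test, although its SD of 124 CPM is a small part of the mean of 1244 CPM. Il34, the other ligand of Csf1r, had 47, 23 and 28 counts, and was highest in clone 1 (adjusted p = 0.0271, chi-square). Csf3, the growth factor of neutrophils, had 12, 17 and 5 counts (adjusted p = 0.0328, chi-square).

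Of the cytokines that signal through gp130, Lif and Il6 were lowest in clone 2 and Il11 did not pass the test. Lif, which keeps mouse embryonic stem cells undifferentiated, had 1865, 1255 and 1600 counts, or 64.7 ± 9.77 CPM (SD, n = 3), and its ratio was 0.805 (0.754 to 0.859, adjusted p = 4.03e-15, chi-square). Il6 had 107, 44 and 61 counts with a ratio of 0.582 (0.408 to 0.815, adjusted p = 7.75e-06, chi-square). Against clone 3 alone, clone 2 was at 0.808 for Il6 (0.536 to 1.21), an interval that includes no difference. Clone 1 was at 1.78 of clone 3 (1.29 to 2.48). Il11, a cytokine of fibroblasts in fibrosis, had 187, 191 and 181 counts and a ratio of 1.15 (0.963 to 1.38, adjusted p = 0.312, chi-square).

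Of the IL-1 family, Il1rn, the antagonist of the IL-1 receptor, had 213, 132 and 182 counts (ratio 0.743, 0.605 to 0.906, adjusted p = 0.00493, chi-square). The agonists were near the limit of detection, with 2, 1 and 1 counts for Il1a and 1, 9 and 1 counts for Il1b, and the alarmin Il33 had 7, 4 and 6. Tnf had 39, 57 and 7 counts, with a ratio of clone 2 to the others of 2.75 (1.83 to 4.15, adjusted p = 1.91e-09, chi-square). Clone 2 was at 1.61 of clone 1 and 9.12 of clone 3. Of the members tested, Tnf had the largest ratio of clone 1 to clone 3 (ratio 5.66, 2.5 to 15). Tslp, a cytokine of epithelium and stroma, had 69, 70 and 77 counts, with a ratio of clone 2 to the others of 1.07 (0.789 to 1.43, adjusted p = 0.812, chi-square).

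Because clone 2 stood apart, the test was repeated with clones 1 and 3 alone. There 12 of 29 members differed (41.4%), against a background of 45.1% of 12607 genes, and 10 of the 12 were higher in clone 1. The share of all such genes that were higher in clone 1 was not analysed here. With all 3 libraries, 4752 of 12608 genes tested were highest in clone 1 and 3409 in clone 3. The members higher in clone 1 were Tnf, Ccl20, Ccl17, Cxcl2, Il6, Cxcl14, Ccl25, Cx3cl1, Lif and Csf1, and those higher in clone 3 were Cxcl5 and Cxcl12. The ratios of clone 1 to clone 3 of the macrophage markers lay between 0.896 and 1.4, with a median of 1.1. Their intervals lay above 1 for several, among them Lyz2 (1.33 to 1.48) and C1qb (1.15 to 1.43), and below 1 for none. None of Ccl3, Ccl4, Ccl5, Ccl6, Ccl9 or Ccl12 passed the test between clones 1 and 3. Ccl9 was at a ratio of 0.989 (0.799 to 1.22), and Ccl5, with 8 and 2 counts, was at 4.07 (0.812 to 39.3), which shows how little the counts of the rarest ligands can resolve.

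**Figure D4:**
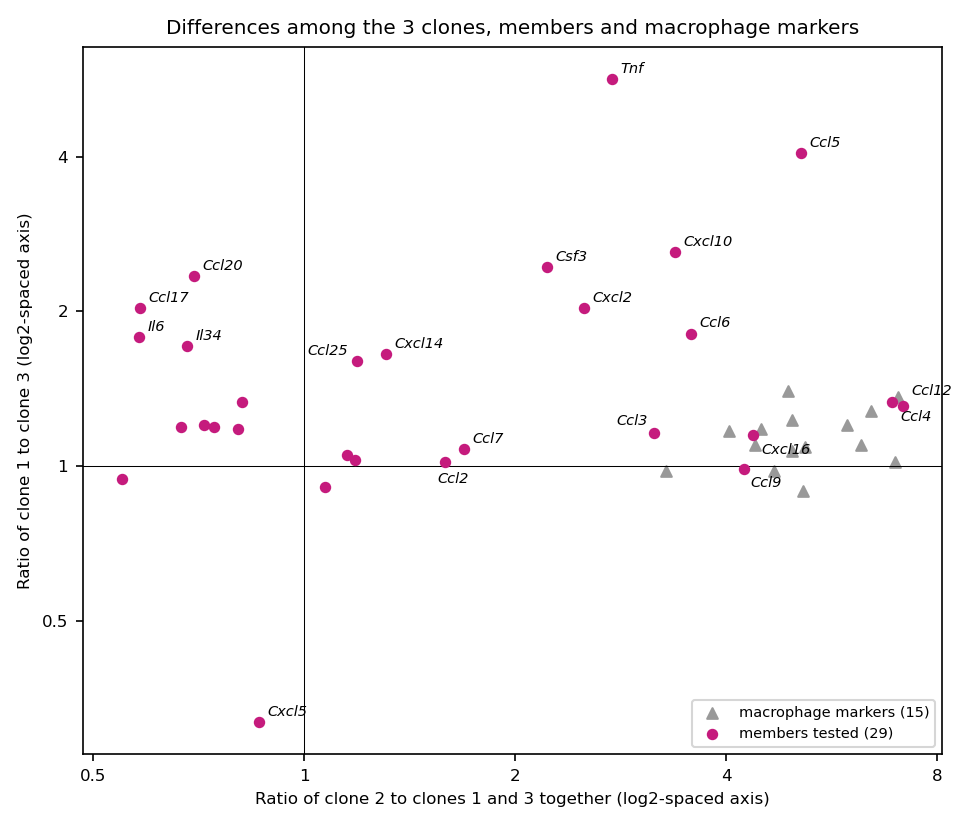
Ratio of clone 1 to clone 3 against the ratio of clone 2 to clones 1 and 3 together (log2-spaced axes) for the 29 members tested and the 15 macrophage markers. Ccl9, Cxcl16 and Ccl4 lie among the markers and Ccl12 at 7.15 just to the right of them. Ccl5, Ccl6 and Cxcl10 are within the range of the markers across but lie above them, at 4.07, 1.81 and 2.61. Tnf lies to the left of the markers at 2.75 and above them at 5.66. Ccl17, Ccl20 and Il6 are at the upper left, high in clone 1 alone.

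The receptors of these ligands were then examined. Of 22 chemokine receptors listed, 18 were in the table and 7 had enough counts to be tested. All 7 differed (62.2% of all genes did), and 4 of them were at least 2-fold higher in clone 2 than in each other clone (2.95% of all genes were). Among them were Ccr1 (71, 283 and 48 counts), Cxcr4 (37, 74 and 33) and Cx3cr1 (431, 1647 and 400). Ccrl2, an atypical receptor that presents chemerin, had 22, 11 and 3 counts, highest in clone 1. Others were chosen after their values were seen, among them Ccr2, the receptor of Ccl2, with 1, 0 and 0 counts, and Cxcr2, with 215, 168 and 145. Ackr1, Ackr2, Ackr3, Ackr4 and Cxcl15 were not analysed here.

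Of 17 cytokine receptors in the table, 16 were tested, all 16 differed and 4 were at least 2-fold higher in clone 2 than in each other clone, beside the same shares of 62.2% and 2.95% over all genes. Csf1r, the receptor of Csf1 and Il34, had 1165, 5001 and 1209 counts (ratio 4.68, 4.46 to 4.92), against the 1.18 of its ligand Csf1. Csf1r and Cx3cr1 are also on the list of macrophage markers. Csf2rb had 60, 242 and 37 counts, Csf3r had 12, 22 and 7, and Il7r, which forms the Tslp receptor with Crlf2, had 10, 19 and 5. The shared subunit Il6st (gp130) was at 236 ± 11.2 CPM, with Lifr at 11.1 ± 2.14 and Il11ra1 at 23.5 ± 3.7 CPM. Crlf2 was at 25.9 ± 3.72 CPM, Tnfrsf1a at 158 ± 10.5 and Tnfrsf1b at 55.8 ± 5.27 CPM, and Il1r1 at 31.2 ± 7.06 CPM (SD, n = 3 for each). Il1rl1, the receptor of Il33, likewise chosen after its values were seen, had 2515, 3999 and 4987 counts, while Il33 itself had at most 7.

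**Figure D5:**
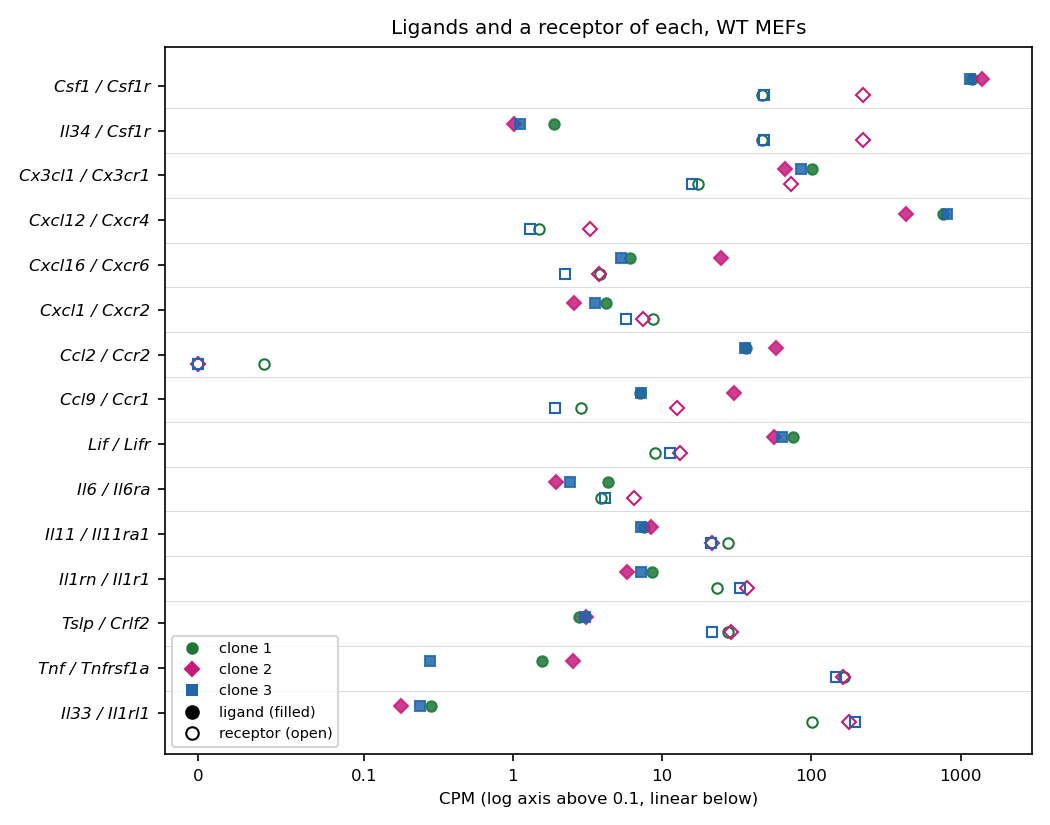
Level in each clone of 15 ligands (filled) and a receptor of each (open), in CPM (log axis above 0.1, linear below), not divided by gene length and so to be compared between clones only. Csf1r, Cx3cr1 and Ccr1 are highest in clone 2, Csf1 differs little between the clones, and Cx3cl1 and Cxcl12 are lowest in clone 2.

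Many of these ligands are induced through NF-kB, whose activity was not tested. None of the NF-kB pathway genes listed differed by 2-fold between any clones, the widest spread being 1.37-fold for Tnfaip3. All 16 of those listed were at 1 CPM or more in every clone, 10 differed by the test, where 62.2% of all genes did, and 0 were at least 2-fold higher in clone 2 than in each other clone, where 2.95% of all genes were. The median log2 ratio of clone 2 to the mean of clones 1 and 3 over the list was 0.04, with values from -0.33 to 0.27.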

How the data were processed

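PolyA+ RNA of 3 WT MEF clones was sequenced, 1 library each. The authors aligned 86-nt single-end reads with TopHat2 2.0.0 (Bowtie 0.12.7, SAMtools 0.1.16; 2 mismatches, 5 multi-hits) and deposited raw counts per gene from HTSeq, with no normalization. The build is mm10 in the methods and mm9 in the submitters' processing notes. The HTSeq version, annotation and strand setting are not given in the sources used here.

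CPM were computed with TMM factors (edgeR 4.0.16, R 4.3.3), with 1 count at 0.0402, 0.0443 and 0.0396 CPM in clones 1, 2 and 3. With 1 library per clone, a comparison between clones leaves no residual degrees of freedom, so counts were compared with the scaled library sizes by Pearson's chi-square (2 degrees of freedom; genes with 30 or more counts in sum, Benjamini-Hochberg adjusted p under 0.05). The p-values measure only the spread between these libraries. Ratios of counts have exact 95% intervals and shares Wilson intervals, both for counting error only. The chi-square test and the ratio interval were tested on simulated counts. These had counting error only and no spread between clones, so they do not show how the test behaves with such spread. Positions and lengths came from GENCODE M21 (GRCm38), promoters from RefSeq. Shared sequence was found with blastn 2.17.0. Protein features were not analysed here. One gene of the receptor list is counted with its list but not reported here by itself.

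Members with a mean of at least 1 CPM were named with every value, others by counts. Pathway genes were named where they are receptors of such members at 10 CPM or more, or differed at least 2-fold. Members and lists were chosen with earlier results of these data known. Alternatives were DESeq2 1.42.0 size factors, total counts, other filters and pseudocounts, coding length and leaving out each clone.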

Additional observations from a re-analysis of the deposited data

How the results depend on the processing

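No paired analysis was possible because the study has 1 group, so no replicate numbers are shared between groups. DESeq2 size factors and total counts left the number of members that differed between the libraries at 25 and the number at least 2-fold higher in clone 2 at 8. With at least 10 counts required in every clone, the latter number fell to 5, since fewer members were tested (24). Leaving out 1 clone gave 12 to 23 members that differed, with 12 where clone 2 was left out, and 19 to 22 genes of the receptor and NF-kB lists in place of 33 (19 without clone 1, 21 without clone 2). The share of all genes that differed moved too, from 62.2% to 31.9% without clone 1, 45.1% without clone 2 and 53% without clone 3. The median log2 ratio of clone 2 to the others was 0.51 without clone 1 and 0.22 without clone 3. Without clone 1 the number of members at least 2-fold higher in clone 2 was 11, and without clone 3 it was 8. For these alternatives, the share of all genes that were at least 2-fold higher in clone 2 was not analysed. The log2 ratio of Ccl20 turned from -0.41 to 0.15 without clone 1 (-0.80 without clone 3), and that of Cxcl5 from -0.18 to 0.66 without clone 3 (-0.71 without clone 1). Per kb of coding sequence, 2 neighbouring pairs in the order of levels were separated in place of 4. Depth limits the rarest members, such as Ccl5 with 8 and 2 counts in clones 1 and 3.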
